A study of Mus musculus with 12 samples.

Results

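Ion channel genes of the voltage-gated superfamily and their accessory subunits were followed through the 5mC and 5hmC peaks of the E14.5 mouse cortex. A peak was included when the tables named as its gene a symbol starting with Kcn, Cacn, Scn plus a digit, or Hcn plus a digit, with Kcnq1ot1 left out. This gave 552 of 55085 5mC peaks and 545 of 47478 5hmC peaks. The peaks belonged to 109 of the 16293 genes of both tables, 99 with a 5mC peak, 101 with a 5hmC peak, and 91 with both. The symbols reach beyond channels that sense voltage and take in inward rectifiers, leak channels, calcium- or sodium-activated channels, and accessory subunits. Cacng genes are also counted here, although several of them are better known as partners of glutamate receptors. Scn1a, the only landmark gene of 22 without a peak, was named in neither table.

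The cells came from embryos carrying a Btg2 RFP and a Tubb3 GFP reporter and were sorted by both colours. PP (proliferative progenitors) were Btg2-/Tubb3-, DP (differentiative progenitors) were Btg2+/Tubb3-, and neurons were Tubb3+ irrespective of Btg2. All 3 cell types thus share both reporters and 1 stage, and a gate on Tubb3 takes in every kind of Tubb3+ cell of the dissected tissue. The 12 samples are 6 IP and 6 input samples, 1 of each for every cell type and mark, and the IP was done on a pool of all cell types, each carrying its own barcode. The tables give 1 mean level per peak and cell type on a log2 scale. They give no level of a single replicate and the authors' own p-values were not used, so the values here stand without an SD or a test and were not compared with the spread between replicates.

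Sodium and calcium channels open when a membrane depolarizes and let in the ions that drive action potentials and transmitter release, whereas potassium channels bring the membrane back to rest. A pore is built from alpha subunits, whose surface level and gating are set by auxiliary subunits. Progenitors of the cortex hold a strongly negative resting potential, and newborn neurons acquire excitability as they mature. 5mC is the methylated form of cytosine, found mostly at CpG, and 5hmC is its oxidized derivative made by Tet enzymes, which is abundant in neurons.

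Peaks on the promoters of channel genes were few. RefSeq windows of 250 bases before a start (build GRCm38.p6, the assembly called mm10) were at hand for 77 of the 109 genes, 106 windows in all. No 5mC peak of any gene overlapped these windows. A 5hmC peak overlapped 7 (6.6%), and in 6 of them the peak was assigned to a channel gene. Of all 32851 windows, genes without any peak included, 0.935% overlapped a 5mC peak and 1.12% a 5hmC peak. The stretches of 4 of these windows covered by a 5hmC peak are shown because they are the places where a mark lay on a channel promoter, with each CpG in capitals and written along the gene's strand. For Kcnk7 the stretch shown ends at 5704303, while the peak runs on to 5704376 within the window, so only part of the covered bases is shown. For Scn8a the window belongs to an internal start, 65615 bp into the gene.
Kcnk7, chr19:5704248-5704303, plus strand: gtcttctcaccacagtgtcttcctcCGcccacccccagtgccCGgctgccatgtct
Kcnd3, chr3:105451810-105451889, plus strand: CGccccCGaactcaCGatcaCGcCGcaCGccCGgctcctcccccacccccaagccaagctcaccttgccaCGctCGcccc
Scn8a, chr15:100936204-100936270, plus strand: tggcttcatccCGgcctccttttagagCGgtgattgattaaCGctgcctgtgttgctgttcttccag
Kcnn4, chr7:24370013-24370103, plus strand: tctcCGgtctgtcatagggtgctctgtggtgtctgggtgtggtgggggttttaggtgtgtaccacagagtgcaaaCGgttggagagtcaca

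These stretches differed in CpG content, and the peaks covering them differed in how 5hmC moved. The levels below are those of whole peaks, which reach beyond the stretches. The part of the Kcnk7 stretch that is shown holds 2 CpG and the Kcnd3 stretch 9, while the Scn8a stretch holds 3 and the Kcnn4 stretch 2. At Kcnk7, a leak channel gene, the 5hmC level was 3.65 for PP, 3.77 for DP, and 4.88 for neurons. At Kcnd3, which encodes an A-type potassium channel, it was 5.08 for PP, 5.06 for DP, and 4.41 for neurons. At the internal start of Scn8a, the main sodium channel of mature axons, it was 5.54 for PP, 5.80 for DP, and 6.14 for neurons. At Kcnn4 it stayed within a narrow range, with 5.68 for PP, 5.49 for DP, and 5.57 for neurons. Kcnk7 and Scn8a were thus highest in neurons and Kcnd3 was lowest there. The peaks of Cacng8 and Cacng5, whose windows are not shown, moved little. Their levels were 4.79, 5.05, and 4.74 at Cacng8 and 5.93, 5.92, and 5.90 at Cacng5.

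Over all promoter windows of channel genes the median was 9 CpG per 250 bases, against 6 over the 32851 windows of all genes. Windows of channel genes with higher expression in neurons had a median of 11. Motifs were counted on both strands. CANNTG, the E-box of basic helix-loop-helix factors, was found in 64.2% of the channel windows and in 66.2% of all windows. Its form CAGCTG was found in 21.7% against 13%, and its form CAGATG in 13.2% against 14.4%. TTCAGCACC, the first part of the element bound by the repressor Rest, was found in 1 of 106 channel windows and in 0.301% of all windows, and GGACAG, its second part, in 18.9% against 18.7%. These matches are letters in a window and say nothing of binding.

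Channel genes stood out most in the expression values that the authors attached to the peaks. These values came from their earlier RNA-seq of the same sorted cell types, hold 1 number per gene and cell type on a scale that is not named, and do not check the DNA samples. On the log2(value + 1) scale, 77 of the 109 genes were at least 2-fold higher in neurons than in PP, against 21.1% of all genes of the tables, and 16 were at least 2-fold lower, against 22.9% of all genes. The median difference was 2.62 for channel genes and −0.01 for all genes. Most of it lay between DP and neurons, where 72 genes were higher (background 17.4%) and 13 lower (background 18%). Between PP and DP, 38 were higher (background 7.99%) and 9 lower (background 8.14%).

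**Figure D1:**
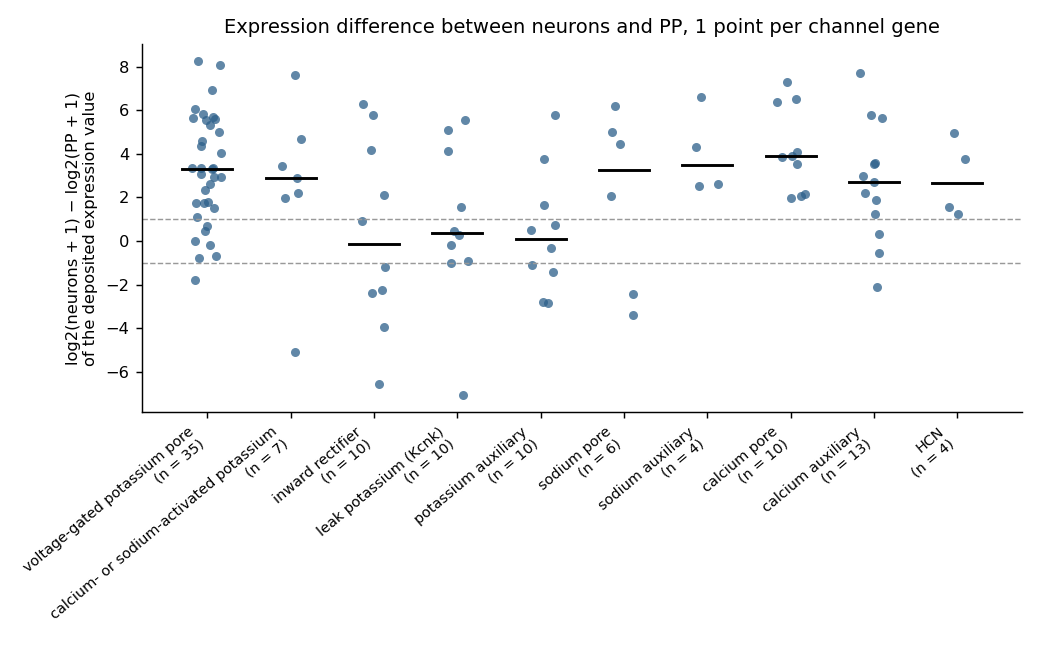
Difference in the deposited expression value between neurons and PP on the log2(value + 1) scale, 1 point per channel gene by group, with group medians as black bars and dashed lines at a 2-fold difference. All 10 calcium pore genes lie above the upper line, while the inward rectifiers lie on both sides with a median of −0.14.

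The groups of channels differed in this. Of 35 voltage-gated potassium pore genes 28 were higher in neurons and 1 was lower, with a median of 3.28. All 10 calcium pore genes, all 4 HCN genes, which carry a current activated by hyperpolarization, and all 4 sodium auxiliary genes were higher. The inward rectifiers divided into 4 higher and 5 lower, potassium auxiliary subunits into 3 higher and 4 lower, and leak channels into 4 higher and 2 lower. Kcnh3, a potassium channel of the ether-a-go-go family, showed the largest difference, with 8.1 for PP, 44.1 for DP, and 2806 for neurons. Kcna1, a delayed rectifier of axons, followed with 19.6, 84.5, and 5622. Cacng2, known as stargazin, had 6.4, 32.7, and 1535, and Kcnma1, the large-conductance calcium-activated channel, 2.8, 12.4, and 742.9. In all 4 of these the value of DP was closer to that of PP than to that of neurons.

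The genes that went the other way were few and lay mainly outside the voltage-gated pores. Kcnk5, an acid-sensitive leak channel, had 1577 for PP, 760 for DP, and 10.7 for neurons. Kcnj10, the inward rectifier of glial cells, had 3922, 2098, and 41.3. Kcne1l, an accessory subunit, had 699, 956, and 98.3. For these 3 genes neurons had the lowest value of the 3 cell types.

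Landmark genes of neuronal excitability were mostly among those higher in neurons. For Scn2a1, the early sodium channel of axons, the values were 66.4 for PP, 78.5 for DP, and 2161 for neurons. Scn3a, the sodium channel typical of the embryonic brain, had 108.9, 1226, and 7928, and Scn8a 2315, 3976, and 9733. Kcnq3, a subunit of the M-current channel, had 44.9, 268, and 5571. Cacna1e, an R-type calcium channel, had 184, 270, and 16687, and Cacna1h, a T-type calcium channel, 1402, 4125, and 20450. Kcnd2, an A-type potassium channel, and Kcnk2, a leak channel, differed by less than 2-fold between PP and neurons, with 454, 365, and 624 and with 1140, 845, and 1553. Kcna2, a delayed rectifier, had 37.1, 42.5, and 292.8, Kcnc1, a fast delayed rectifier, 483, 917, and 4711, and Hcn3 1097, 1505, and 3206. The calcium channels Cacna1a and Cacna1c had 305, 746, and 5164 and 535, 968, and 6194, and Cacna1g 1546, 3022, and 6059. Kcnj2, an inward rectifier, was lower in neurons, with 14.3, 11.6, and 2.2. Kcnj6 was listed at 0 in PP and had 9.3 in DP and 54.2 in neurons. Kcnb2 appears with 2 sets of values under its symbol, and the first set was used.

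The shares of channel peaks with a changed mark were close to those of all peaks. A change was taken as the difference of mean levels after subtracting the median difference over all peaks of that mark, and it was counted as a gain or a loss from 1.5-fold (0.58 on the log2 scale). The subtracted medians for 5mC were −0.004 from PP to DP, −0.18 from DP to neurons, and −0.17 from PP to neurons, and for 5hmC −0.003, −0.02, and −0.08. Median 5mC levels of channel peaks were 5.14 for PP, 5.11 for DP, and 4.94 for neurons, next to 5.06, 5.05, and 4.87 over all peaks. Median 5hmC levels were 4.79, 4.77, and 4.87, next to 4.72, 4.71, and 4.75.

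**Figure D2:**
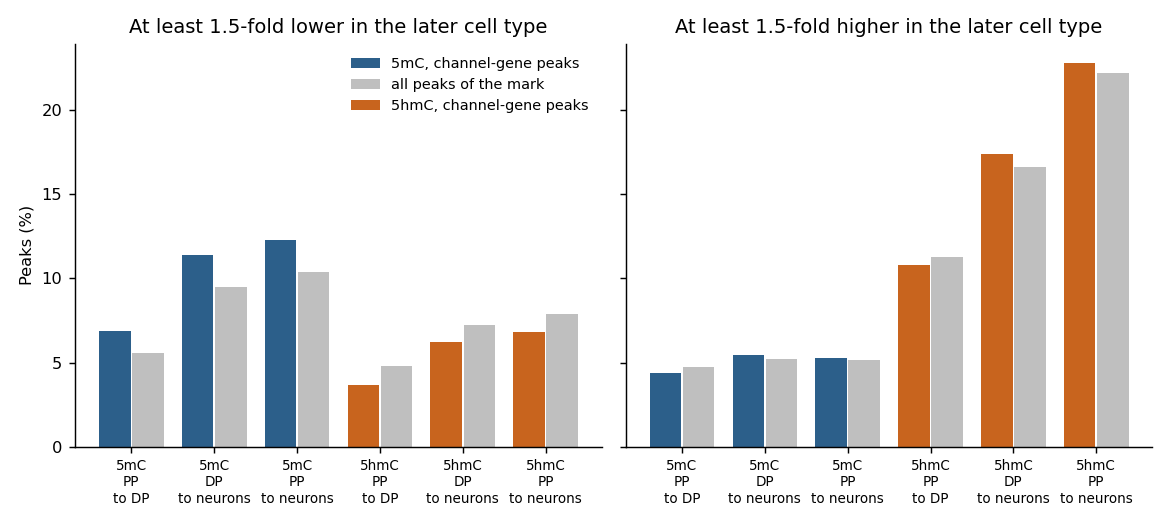
Share of channel-gene peaks (coloured) and of all peaks of the same mark (grey) at least 1.5-fold lower (left) or higher (right) in the later cell type of each transition, in percent from 0. Channel peaks lost 5mC in 12.3% and gained 5hmC in 22.8% of cases from PP to neurons, against 10.4% and 22.2% of all peaks.

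5mC was lost more often than it was gained, chiefly at the step from DP to neurons. From PP to DP, 24 channel peaks gained 5mC (4.35%, background 4.72%) and 38 lost it (6.88%, background 5.56%). From DP to neurons, 30 gained (5.43%, background 5.23%) and 63 in 39 genes lost (11.4%, background 9.48%). Over the whole course from PP to neurons, 29 gained (5.25%, background 5.15%) and 68 in 44 genes lost (12.3%, background 10.4%). The medians of the change were −0.01, −0.02, and −0.04, and the shares were near the background.

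5hmC gains outnumbered losses at both steps. From PP to DP, 59 channel peaks gained 5hmC (10.8%, background 11.3%) and 20 lost it (3.67%, background 4.77%). From DP to neurons, 95 in 50 genes gained (17.4%, background 16.6%) and 34 lost (6.24%, background 7.22%). From PP to neurons, 124 in 58 genes gained (22.8%, background 22.2%) and 37 lost (6.79%, background 7.91%). Against peaks that lie inside a gene, the kind that channel genes hold in excess, channel peaks inside their gene gained 5hmC in 21.4% against 26.8% from PP to neurons. Losses of 5mC inside genes went the other way, with 13.7% of channel peaks against 10.7% of all.

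Few peaks moved at both steps. Of 59 peaks that gained 5hmC from PP to DP, 22 gained again from DP to neurons (37.3%, next to 51.7% over all peaks), and 4 turned back past the same fold. Of 20 that lost 5hmC at the first step, none lost again and 15 turned back, a share of 75% next to 28.8% over all peaks. For 5mC, 4 of 38 losses went on (10.5%, next to 13.1% over all peaks) and 11 turned back (28.9%, next to 31.1%). Of 24 5mC gains none went on and 8 turned back (33.3%, next to 27.7%). Both steps share the DP level, which enters them with opposite signs.

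Channel genes are long, and their peaks lay accordingly. The 109 genes spanned a median of 54.5 kb in RefSeq, against 20.9 kb for 15066 genes of the tables, and had a median of 3 5mC and 4 5hmC peaks against 2 and 2. For either mark 51.6% of channel peaks lay inside the gene, against 40.2% of all 5mC and 36.2% of all 5hmC peaks. The median distance to the start site was 34.4 kb for 5mC and 39.7 kb for 5hmC, against 20.4 kb and 27.2 kb. Of the peaks outside their gene, 102 of 267 5mC peaks and 59 of 264 5hmC peaks lay within another protein-coding gene, so nearness to a channel gene does not make them its own.

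This was plain for several of the genes with the most peaks. Cacng1, a subunit of the calcium channel of skeletal muscle, had 32, and 12 of its 5mC and 6 of its 5hmC peaks lay in Helz. Kcnab2, a cytoplasmic subunit of potassium channels, had 28, all upstream, of which 19 of 20 5mC peaks and all 8 5hmC peaks lay in Nphp4. Kcnh1 and Scn8a had 31 each and Cacna1e 28. All 31 Kcnh1 peaks lay inside the gene.

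Voltage-gated potassium pores held 130 5mC peaks in 29 genes and 177 5hmC peaks in 33. From DP to neurons 23 of the 5mC peaks lost signal (17.7%, background 9.48%) and 5 gained (3.85%, background 5.23%). From PP to neurons 21 lost (16.2%, background 10.4%) and 8 gained (6.15%, background 5.15%). These losses spread over 13 genes, and without Kcng3, which held 5 of them, the share was 13.8%. 5hmC gains from PP to neurons were at 29 of 177 peaks (16.4%) and losses at 15 (8.47%, background 7.91%). The share of 5hmC gains was below the 22.2% of all peaks, although 28 of the 35 genes of the group were higher in neurons.

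Kcng3, which encodes a silent subunit that joins other potassium channels, had peaks that all moved in the same direction within each mark. It was chosen here after its values were seen. All 14 of its 5mC peaks changed downward from PP to neurons relative to the median peak, by −0.11 to −2.13, and 5 of them were losses. All 5 of its 5hmC peaks changed upward, by 0.14 to 3.51, and 4 were gains. Both directions were the same without subtracting the median. Median 5mC levels over its peaks were 5.03 for PP, 4.85 for DP, and 4.22 for neurons, and median 5hmC levels 3.39, 3.85, and 4.85. Neighbouring peaks of a gene share DNA fragments, cells, and libraries and are no replicates.

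**Figure D3:**
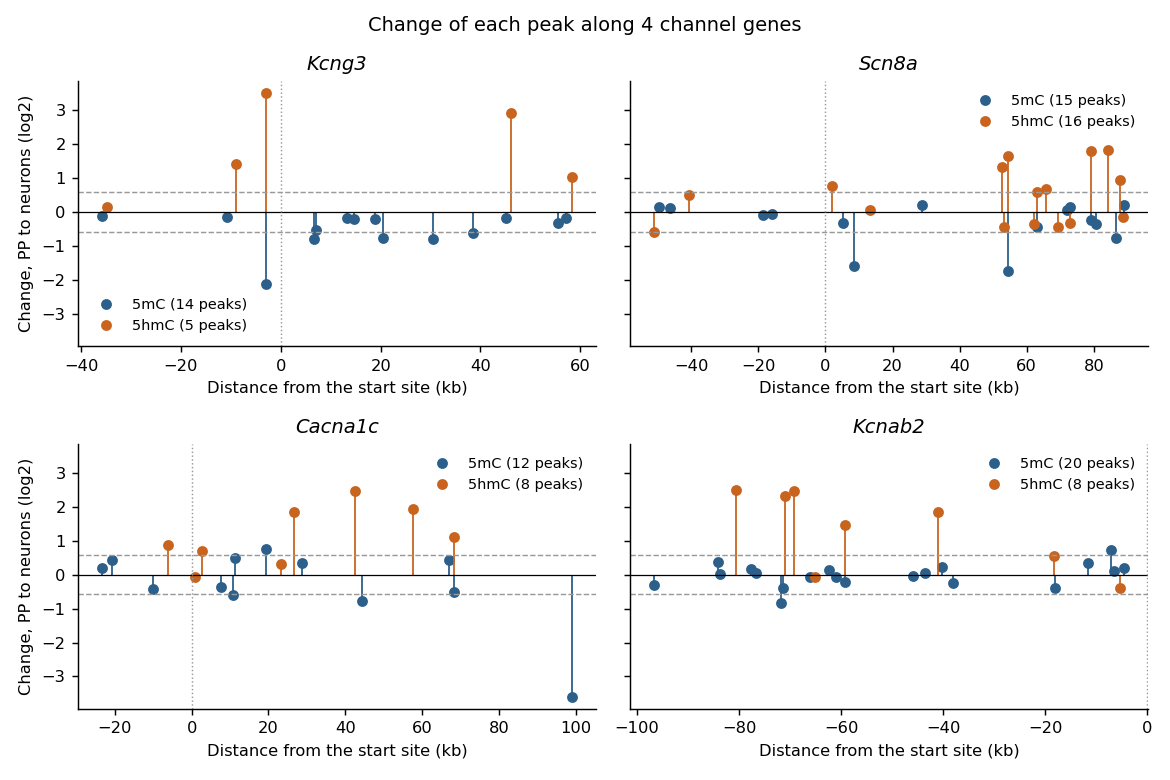
Change from PP to neurons (log2, vertical) of each 5mC (blue) and 5hmC (orange) peak against its distance from the start site in kb for Kcng3, Scn8a, Cacna1c, and Kcnab2, with dashed lines at 1.5-fold. Kcng3 has all 14 5mC peaks below 0 and all 5 5hmC peaks above it, and the 8 Kcnab2 peaks of 5hmC lie upstream, between −80.5 and −5.29 kb.

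Kcnh1 and Kcna1 showed both directions. At the Kcnh1 peak of chr1:192355649-192355768, inside the gene, 5mC was 3.90 for PP, 2.71 for DP, and 4.18 for neurons, the largest gain from DP to neurons, at 1.65. This peak was low only in DP. The largest 5hmC gain from PP to DP, at 2.26, was at another Kcnh1 peak, chr1:192381054-192381235, with 2.92, 5.18, and 5.48. Of 12 Kcna1 peaks of 5mC, all downstream of the gene, 3 were losses and 1 a gain from PP to neurons, and of 15 5hmC peaks 4 were gains and 1 a loss. Kcnf1, another silent subunit, had the second largest 5mC gain from PP to DP, with 4.60, 6.02, and 5.02 at a peak 79352 bp downstream of its start. This peak was high only in DP.

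Losses of 5hmC were seen at other voltage-gated potassium pores. At a peak inside Kcnq3 5hmC was 4.18, 4.40, and 2.99, a loss of −1.39 from DP to neurons. At a peak inside Kcnh7 it was 4.35, 3.37, and 3.29. Kcnq3, with 3 5hmC losses and no gain from PP to neurons, was at the same time among the genes with the highest expression difference.

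Inward rectifiers had 44 5mC and 38 5hmC peaks. From PP to neurons they held 3 5mC losses (6.82%, background 10.4%) and 9 5hmC gains (23.7%, background 22.2%). At Kcnj4, 5hmC at −1959 bp from the start was 2.77 for PP, 4.54 for DP, and 4.65 for neurons. At a peak inside Kcnj6, a channel opened by G proteins, 5hmC went down from 4.95 in PP and 5.17 in DP to 3.78 in neurons. Of all 5hmC peaks in the same 10% band of mean level, 0.0842% had a lower change from DP to neurons. Leak channels had 62 5mC and 45 5hmC peaks, with 8 5mC losses (12.9%) and 11 5hmC gains (24.4%) from PP to neurons, near the same backgrounds. The leak channel Kcnk5 had the largest 5mC gain from PP to DP, with 3.33, 4.77, and 4.03 at a peak inside the gene. Calcium- or sodium-activated channels had 39 and 34 peaks with 3 5mC losses (7.69%, background 10.4%) and 8 5hmC gains (23.5%, background 22.2%). Kcnn3 held 6 of these 8 gains. At Kcnu1, a channel of sperm, 5mC was 4.28, 3.22, and 4.40.

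Potassium auxiliary subunits had the highest share of 5hmC gains from PP to neurons, with 16 of 46 peaks (34.8%, background 22.2%), next to 1 loss (2.17%, background 7.91%). Kcnab2 held 5 of these gains, all in Nphp4, and without it the share was 28.9%. At the Kcnab2 peak of chr4:152558325-152558503, −80543 bp from the start, 5hmC was 3.0 for PP, 5.12 for DP, and 5.42 for neurons. Of the 72 5mC peaks of the group 8 were losses (11.1%, background 10.4%) and 4 gains (5.56%, background 5.15%). Kcnip2, a calcium-binding partner of A-type channels, held 3 of the losses. At its peak of chr19:45855527-45855659, which lies in Armh3, 5mC was 4.8, 4.64, and 2.02, and at 589 bp from its start 4.58, 3.88, and 3.48. At the Kcne2 peak −48386 bp from the start it was 4.36, 3.19, and 3.24.

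Sodium channel pores came next in 5hmC gains, with 13 of 40 peaks (32.5%, background 22.2%). Scn8a alone held 8 of them, and without it the share was 20.8%. Its 16 5hmC peaks had a median of 4.72 for PP, 4.97 for DP, and 5.32 for neurons, and none was a loss. Of its 15 5mC peaks 3 were losses and none was a gain. The largest Scn8a gain from DP to neurons, 2.41, was at chr15:100925052-100925197 inside the gene, where 5hmC was 2.92, 2.10, and 4.49.

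Calcium channel pores had 54 5mC and 66 5hmC peaks. Losses of 5mC from DP to neurons were at 9 of the 54 (16.7%, background 9.48%). From PP to neurons they were at 7 (13%, background 10.4%). Cacna1c held 3 of these 7, and without it the share was 9.52%. The median change of the group from PP to neurons was −0.21. The largest loss of all channel peaks was inside Cacna1c, an L-type channel, at chr6:118681117-118681263, where 5mC was 5.41 for PP, 5.30 for DP, and 1.64 for neurons. Only neurons were low here, and 0.0363% of all 5mC peaks in the same 10% band of mean level had a lower change from DP to neurons. The next was inside Cacna1a, a P/Q-type channel, at chr8:84426528-84426697, with 5.03, 4.77, and 1.51. In its band 1.11% of all 5mC peaks had a lower change from DP to neurons. Cacna1c also held 6 of the 15 5hmC gains of the group from PP to neurons (22.7%, background 22.2%). Without it the share of gains was 15.5%. Cacna1e had 4 5hmC losses and 2 gains among 18 peaks, 13 of them upstream.

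The T-type channels showed gains and losses. At a peak inside Cacna1g 5hmC was 3.27 for PP, 1.76 for DP, and 4.40 for neurons, the largest gain from DP to neurons at 2.66 but a dip in DP rather than a steady rise. At a peak inside Cacna1i it was 3.82, 4.50, and 2.85, the largest loss from DP to neurons at −1.63. Expression of both genes was higher in neurons than in PP.

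Calcium auxiliary subunits had 74 5mC peaks with 9 losses (12.2%, background 10.4%) and 78 5hmC peaks with 19 gains (24.4%, background 22.2%) from PP to neurons. Cacna2d4, a subunit known from the retina, held 5 of the gains, although its deposited expression was 1.5 for PP, 3.7 for DP, and 0.7 for neurons. At a peak inside it 5mC was 4.61, 3.34, and 2.57, lower at each step. Cacng5 had the largest 5mC loss from PP to DP, at −1.32, with 4.50, 3.17, and 3.53 at a peak inside the gene. Cacna2d1 had a 5mC gain from PP to DP, with 4.25, 5.33, and 4.62. At Cacng3, −12197 bp from the start, 5hmC was 4.40, 3.31, and 4.58, low only in DP. HCN genes had 10 5mC peaks with no change past 1.5-fold from PP to neurons, where the background was 10.4% losses and 5.15% gains. Of their 15 5hmC peaks 3 were gains (20%, background 22.2%).

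Near the start sites the changes were few but went mostly one way. Within 2000 bp of a start lay 17 5mC peaks of 15 genes and 27 5hmC peaks of 23 genes. From PP to neurons 5 of the 17 lost 5mC (29.4%, against 9.53% of all 5mC peaks this near) and 1 gained. Of the 27, 9 gained 5hmC (33.3%, against 21% of all 5hmC peaks this near) and 1 lost. Upstream of Cacna1h, at −1593 bp, 5mC was 6.50 for PP, 6.43 for DP, and 4.8 for neurons, and 5hmC at −1635 bp was 4.01, 4.12, and 4.90. Only 0.236% of all 5mC peaks in the same 10% band of mean level had a lower change from PP to neurons. Upstream of Cacna2d2, at −1699 bp, 5mC was 4.08, 3.88, and 2.45 and 5hmC at −1739 bp was 4.50, 4.08, and 5.23. In Kcnip2, 684 bp from the start, 5hmC was 4.86, 5.09, and 6.48. Neighbouring peaks in Kcnd2 moved apart, with 5mC of 4.47, 4.2, and 3.28 at 990 bp and of 3.68, 4.62, and 4.21 at 1532 bp.

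Places that carried both marks were read as pairs of overlapping peaks, with at least 1 bp shared. Channel genes had 76 such pairs in 49 genes, 13.8% of their 5mC peaks and 13.9% of their 5hmC peaks, against 12.2% and 14.2% of all peaks. From PP to neurons 15 of the 76 lost 5mC, next to 1641 of all 6727 pairs. Gains of 5hmC were at 39 of the 76, next to 2897 of the 6727. Both changes were at 12 of the 76, a share of 15.8% against 19% of all pairs. None of the 76 gained 5mC and lost 5hmC, which was rare everywhere, with 16 of the 6727 pairs. The median changes of the 76 pairs were −0.15 for 5mC and 0.59 for 5hmC, against −0.15 and 0.41 over all pairs. Across the 76 pairs Spearman's rho of both changes was −0.46, and across all pairs −0.51. Points of a pair share the cells and the barcoded pool, and both marks of 1 place draw on the same cytosines, so this is a description.

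**Figure D4:**
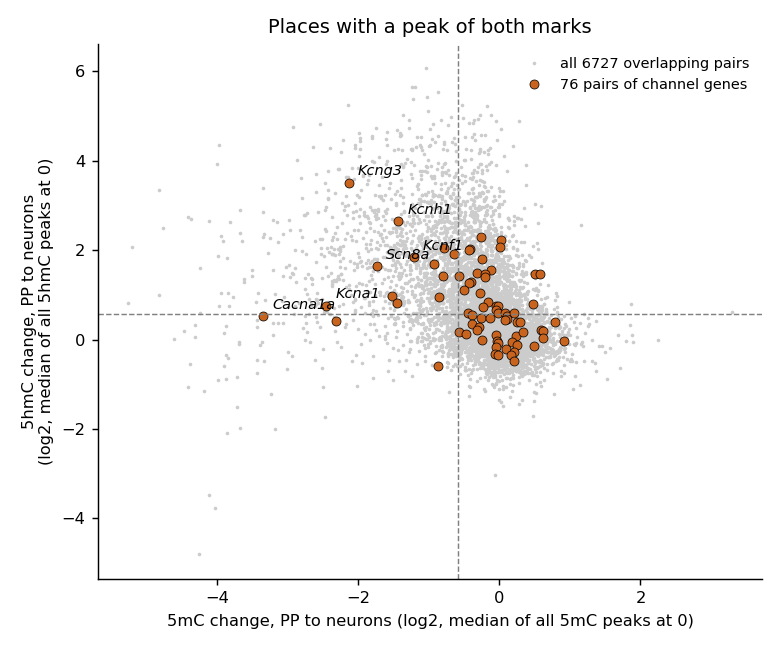
Change of 5hmC against change of 5mC from PP to neurons (both log2, relative to the median of all peaks of the mark) at places where peaks of both marks overlap, with all 6727 pairs in grey and 76 pairs of channel genes in orange. The upper left corner beyond the dashed 1.5-fold lines holds 12 channel pairs. The opposite corner holds no channel pair and 16 of all 6727 pairs.

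The pair with the largest combined change was at Kcng3, at −3033 bp from the start. Its 5mC was 4.75 for PP, 4.61 for DP, and 2.45 for neurons, while its 5hmC was 1.12, 2.74, and 4.55. Of all peaks in the same 10% band of mean level, 6.24% had a lower 5mC change and 89.8% a lower 5hmC change from PP to neurons. At the pair inside Kcnh1 5mC was 4.77, 3.97, and 3.17 and 5hmC 2.92, 5.18, and 5.48. The 5hmC change of Kcng3 was 1.62 in the first step (PP to DP) and 1.84 in the next (DP to neurons), and that of Kcnh1 was 2.26 and 0.33. In the same order, the 5mC change of Kcng3 was −0.14 and −1.98, and that of Kcnh1 was −0.80 and −0.62. At the pair inside Cacna1a 5mC was the one that moved, and its 5hmC went from 5.33 to 5.77, under 1.5-fold. At Scn8a 5mC was 4.72, 3.68, and 2.81 and 5hmC 2.92, 2.10, and 4.49. This 5hmC change from PP to neurons was ordinary for its level, with 50.4% of all 5hmC peaks in the same band lower. At Kcna1, 43873 bp downstream of its start, 5mC was 4.69, 4.31, and 2.06 and 5hmC 4.55, 4.34, and 5.23. At Kcnf1, 5mC was 7.38, 7.31, and 6.0 and 5hmC 3.71, 4.2, and 5.47, and 0.254% of all 5mC peaks in the same 10% band of mean level had a lower change. This was the pair with the highest 5mC level of the 6.

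**Figure D5:**
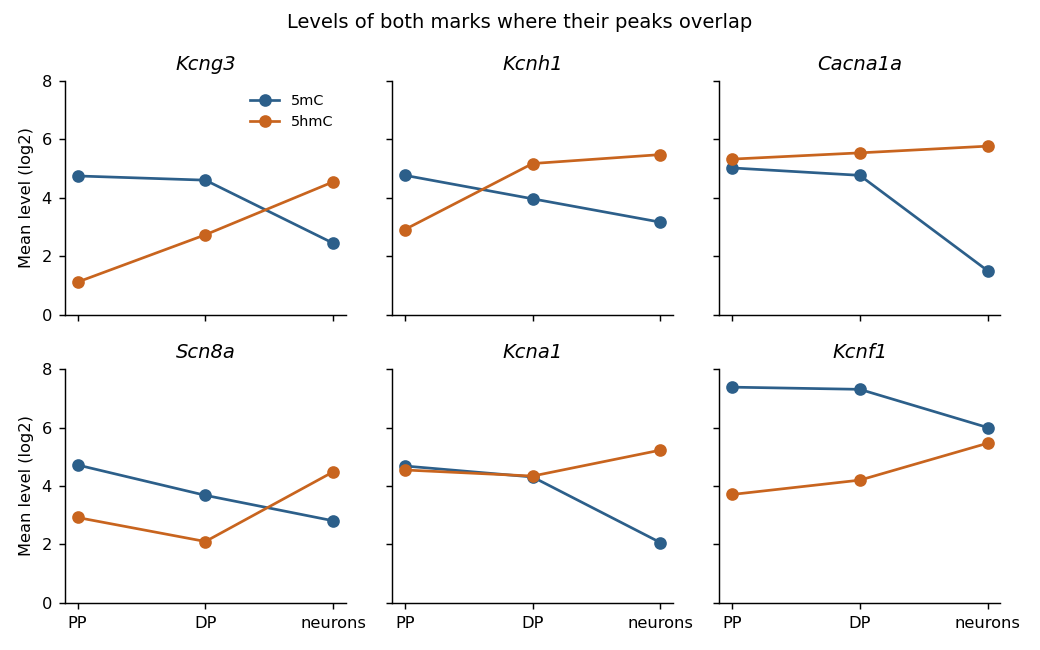
Mean log2 levels of 5mC (blue) and 5hmC (orange) in PP, DP, and neurons at the 6 overlapping pairs with the largest sum of 5mC decrease and 5hmC increase from PP to neurons. In all 6 the 5mC level is lowest and the 5hmC level highest in neurons.

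Marks and expression were then set side by side, gene by gene. Of the 77 genes with higher expression in neurons, 27 held a 5mC loss (35.1%), 41 a 5hmC gain (53.2%), 18 both, and 27 neither. Of the other 32 channel genes 17 held a loss (53.1%) and 17 a gain (53.1%). Over all genes, which have fewer peaks each, a loss was held by 30.9% and a gain by 43.5% of those with higher expression, and by 21% and 29% of the rest. 5mC was lost at 12.2% of the 384 peaks of these genes, at 12.9% of the 70 peaks of genes within 2-fold, and at 12.2% of the 98 peaks of genes that were lower. Over all genes the same shares were 14%, 9.42%, and 8.61%. 5hmC was gained at 20.8% of 427 peaks of channel genes with higher expression, at 34.4% of 61 peaks of those within 2-fold, and at 24.6% of 57 peaks of those that were lower. Over all genes the shares were 25.4%, 21.4%, and 20%. Across genes Spearman's rho between the median change of a gene's peaks and its expression difference was −0.19 for 5mC in 99 genes and −0.19 for 5hmC in 101 genes. Genes with few peaks weigh as much as those with many in this value.

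Genes that anchor, traffic, or regulate channels were looked at from a list of 29, of which 25 had a peak. Expression of 16 of them was at least 2-fold higher in neurons than in PP and of 2 lower, next to 21.1% and 22.9% of all genes. Their 154 5mC peaks held 34 losses (22.1%, background 10.4%) and 5 gains (3.25%, background 5.15%) from PP to neurons. Most of these losses belonged to Nedd4l, Ank3, Cntn2, and Nfasc, and no other gene of the list held more than 2. The share therefore rests on few genes and does not describe the list as a whole. Their 198 5hmC peaks held 48 gains (24.2%, background 22.2%) and 16 losses (8.08%, background 7.91%). Ank3, the anchor of sodium channels at the axon initial segment, had 7 5mC losses among 30 peaks and 12 5hmC gains among 35. Nedd4l, a ubiquitin ligase that removes sodium channels, had 8 losses among 19 and 12 gains among 27. Cntn2, an axonal adhesion protein that clusters potassium channels, had 7 losses among 13, and Nfasc, which holds sodium channels at the initial segment, 4 among 7. Rest, the repressor of neuronal genes, had expression of 5885 for PP, 3244 for DP, and 1934 for neurons, no 5mC change past 1.5-fold at its 4 peaks, and a gain at its only 5hmC peak.

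Other gene families give a scale for these shares. From PP to neurons peaks of neurotransmitter receptor genes lost 5mC in 10.1% and gained 5hmC in 18.2% of cases, and peaks of solute carrier genes in 9.3% and 22.2%. Channel genes, at 12.3% and 22.8%, were the highest of the 3 for both, without a test of the difference. They were near the 10.4% and 22.2% of all peaks.

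The labels of the cell types were compared with marker genes through the same expression values. All 6 PP markers with a value were highest in PP, all 5 DP markers in DP, and all 6 neuronal markers in neurons. Summed values of interneuron markers, of which 4 of 6 had a value, were 971 for PP, 3616 for DP, and 10576 for neurons. Those of 5 endothelial markers were 510.6, 359.9, and 101.7, of 3 microglial markers 329, 199.7, and 76.5, and of 4 oligodendrocyte lineage markers 335, 449, and 36.1, with Sox10 listed at 0 in neurons. None of 3 blood markers had a peak and hence a value. Interneuron markers moved with the channel genes, and their part in the differences was not tested. Fewer cells of a type and less signal per cell cannot be told apart in such bulk samples.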

How the data were processed

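5mC and 5hmC were measured by MeDIP and hMeDIP in PP, DP, and neurons, with 6 IP and 6 input samples. The authors used BWA v0.7.8 for alignment of single-end reads to mm10 and SICER v1.1 for peak calling. Peaks common to the replicates of a cell type were merged and repeats discarded. DiffBind v2.6 gave TMM-normalized levels, and HOMER v4.7 assigned the closest TSS. The deposited level columns hold the authors' mean of normalized reads per peak and cell type on a log2 scale, over 3 replicates that the labels do not separate. The deposited distance is a score in bp, and the deposited expression is a score per gene and cell type from earlier RNA-seq, on a scale that is not named. Columns of the authors' fold changes and p-values between cell types were not used. Input samples have no column in the tables. No counts are given, so the depth behind each value is unknown, and small changes at low levels are the least certain. Coordinates are as the tables give them, and whether the first base counts from 0 or 1 is not stated.

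All rows were kept. Changes were differences of mean levels minus the median over all peaks of the mark, counted from 0.58 on the log2 scale. Expression differences used a pseudocount of 1 and a minimum of 2-fold. Spans of genes and promoter windows came from RefSeq, GRCm38.p6. The members, gene groups, and lists were chosen with earlier results of these data known. Named genes were the 6 with the most peaks, the 3 peaks with the largest change per mark, step, and direction with the higher level at 4 or above, the 6 pairs with the largest combined change, changed peaks within 2000 bp of a TSS (at most 8 per mark), the 4 largest expression differences in each direction at a mean of at least 50, and 22 landmark genes. Kcng3 was described further after its values were seen, as were genes that held most of the changes of a group. Alternatives were uncentred levels, a 2-fold minimum, levels of at least 5, repeated rows dropped (none in channel genes), voltage-gated pores only, leaving out the gene with the most peaks, 1 peak per gene, peaks inside genes, a larger overlap, and another pseudocount or expression filter. The steps that count changes and overlaps were tested on simulated data. The software was pandas 2.3.3, scipy 1.17.1, numpy 2.4.6, and matplotlib 3.10.9 under python 3.11.15. Sequences of peaks, input signal, and proteins were not analysed here, and some genes that the naming rule takes in are not reported here.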

Additional observations from a re-analysis of the deposited data

How the results depend on the processing

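Of 145 alternative values 84 stayed close to the reported one, and 61 moved, meaning that a share or median left the 95% interval of the reported value (exact binomial for shares, order statistics for medians) or that a share or count differed by over 1.5 times. Of these, 13 came from the 2-fold minimum, 16 from levels of at least 5, 16 from 1 peak per gene, 8 from uncentred levels, and 5 from voltage-gated pores only. A 2-fold minimum can only lower or keep a share counted from 1.5-fold, so its 13 do not measure stability. The cause of the others was not tested. Dropping repeated rows, of which channel genes hold none, gave 18 of the 84 values that stayed close and moved nothing. Leaving out the gene with the most peaks and a larger overlap also moved nothing. No paired analysis was possible because the tables hold means of cell types and no replicate levels.

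With a 2-fold minimum, channel peaks gained 5mC in 0.543% (PP to DP), 0.543% (DP to neurons), and 0.181% (PP to neurons) and lost it in 1.81%, 3.8%, and 4.71%, against 0.659%, 0.704%, and 0.677% gained and 0.96%, 3.3%, and 4% lost over all peaks. They gained 5hmC in 3.67%, 8.62%, and 13.8% and lost it in 0.55%, 1.1%, and 0.917%, against 5.07%, 8.03%, and 14.2% gained and 0.56%, 1.19%, and 1.24% lost over all peaks. Of the overlapping pairs 4 then had less 5mC and more 5hmC in neurons. With levels of at least 5, 5mC gains were 1.74%, 2.09%, and 3.14% and losses 1.74%, 4.18%, and 4.88% (all peaks 1.25%, 1.82%, 2.22% and 1.23%, 3.32%, 3.99%), and 5hmC gains were 5.37%, 7.80%, and 13.2% and losses 0.976% at each comparison (all peaks 3.84%, 6.81%, 12.3% and 1.2%, 2.73%, 3.24%). The medians then were 0.0162 (5mC, DP to neurons), −0.000246 (5mC, PP to neurons), −0.0420 (5hmC, DP to neurons), and −0.0439 (5hmC, PP to neurons). With 1 peak per gene, the one with the highest level, 5mC gains were 2.02%, 0%, and 3.03% and losses 0%, 6.06%, and 8.08%, and 5hmC gains were 3.96%, 7.92%, and 10.9% and losses 1.98%, 2.97%, and 3.96%. The medians then were 0.0314 (5mC, PP to DP), 0.0555 (5mC, PP to neurons), −0.0574 (5hmC, PP to DP), and −0.0595 (5hmC, PP to neurons). Without centring, 5mC gains were 2.36% (DP to neurons) and 1.81% (PP to neurons), losses 19.9% and 20.3% (all peaks 15.8% and 16.6%), and the medians −0.19 and −0.21, while 5hmC losses from PP to neurons were 10.1% and the median −0.0612. With voltage-gated pores only, 5mC gains from DP to neurons were 3.15% and losses 15.4%, with medians of −0.0743 (5mC, DP to neurons), −0.0944 (5mC, PP to neurons), and −0.0517 (5hmC, PP to DP). Inside genes, 5hmC losses from DP to neurons were 4.27%. Of the genes with lower expression in neurons 10 were left with a pseudocount of 10 and 7 with a mean expression of at least 50, which 76 genes reached.

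Low levels limit the single peaks. In the lowest 10% by 5mC level 44% of all peaks passed 1.5-fold from DP to neurons in either direction, and in the highest 10% 1.51% did. For 5hmC the shares were 74.9% and 5.45%. The median change changed sign under at least 1 alternative in each comparison of either mark except 5hmC from PP to DP. With 1 peak per gene, 5mC gains outnumbered losses from PP to DP, by 2 to 0, where 24 gains and 38 losses were reported. The largest 5mC losses, at Cacna1c and Cacna1a, end at levels of 1.64 and 1.51 in neurons, and the number of reads behind them is not given.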
